A study of Mus musculus with 20 samples.

Results

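The growth hormone axis was examined in mouse hypothalamus through 8 genes of the 55471 in the count table: Ghrh, Sst, the somatostatin receptors Sstr1, Sstr2, Sstr3 and Sstr4, the growth hormone receptor Ghr and the growth factor Igf1. They were chosen by name, as the rows whose Ensembl identifier carries these symbols in the GRCm38 annotation, and all 8 passed the low-count filter that left 17893 genes for testing. The tissue was hypothalamus slices of wild-type C57BL/6 mice in 3 groups: 7 libraries from mice fed control diet ad libitum, 7 from mice fed a diet with risperidone ad libitum, and 6 from mice given the risperidone diet by pair-feeding. Risperidone, given in the diet for 4 weeks, is an antipsychotic whose main targets are the dopamine D2 and serotonin 2A receptors. The labels say that body weight on risperidone was no different from that on control diet, without making clear which feeding condition this covers, and there was no group pair-fed on control diet. Whether each library is 1 mouse is not stated, so p-values here rest on the spread between samples, and some of that spread may be technical.

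Growth hormone itself is made in the pituitary, and the hypothalamus sets its release through a pair of opposing peptides. Neurons of the arcuate nucleus secrete growth hormone releasing hormone (Ghrh), which stimulates release, and neurons of the periventricular nucleus secrete somatostatin (Sst), which inhibits it through G protein coupled receptors. Growth hormone acts on its receptor, Ghr, through JAK2 and STAT5, drives the production of insulin-like growth factor 1 (Igf1) in liver and elsewhere, and feeds back on the hypothalamus. Somatostatin is also a marker of inhibitory interneurons outside the hypothalamus, for example in cortex and hippocampus.

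The proximal promoters of the peptide genes are shown because transcription of Sst is a textbook case of control by cyclic AMP through the palindrome TGACGTCA, the cyclic AMP response element (CRE). RefSeq promoter windows (GRCm38.p6) were found for 7 of the 8 genes, in 10 windows. The 150 bases before each start were searched on both strands for TGACGTCA, for its shorter part TGACG and for TATAAA. The CRE was present in the windows of Sst and Sstr2, starting 48 and 58 bases before the transcription start, and in no window of Ghrh, Sstr3, Sstr4, Ghr or Igf1. Over all RefSeq promoters 1.36% of 32851 windows of this length held it. The shorter TGACG was also found in both Ghrh windows and in 1 Sstr3 window, and in 13.3% of the 32851 windows. TATAAA, which 7.57% of these windows held, was found in 1 of the 2 Ghrh windows, starting 31 bases before the start, and in no other window of these genes. A match describes letters and is no evidence of binding. In the sequences below, read 5′ to 3′ towards the start, capitals mark the motif: the CRE in Sst (chr16:23890845-23890994, minus strand) and in Sstr2 (chr11:113619177-113619326, plus strand), and TATAAA in Ghrh (chr2:157337427-157337576, minus strand).
Sst: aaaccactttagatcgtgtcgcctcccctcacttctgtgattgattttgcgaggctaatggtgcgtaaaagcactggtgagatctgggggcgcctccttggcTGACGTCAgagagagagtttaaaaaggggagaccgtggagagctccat
Sstr2: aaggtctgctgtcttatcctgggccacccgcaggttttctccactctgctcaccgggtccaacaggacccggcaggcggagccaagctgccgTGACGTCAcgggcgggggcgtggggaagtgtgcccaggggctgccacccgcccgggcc
Ghrh: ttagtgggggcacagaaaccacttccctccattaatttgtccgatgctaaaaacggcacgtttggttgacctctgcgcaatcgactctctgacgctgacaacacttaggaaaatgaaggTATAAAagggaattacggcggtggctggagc

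Several libraries stood apart before any comparison was made. Total counts lay between 17316043 and 18606543 in 19 libraries and at 9748005 in risperidone ad libitum library 3. That library also had the lowest TMM scaling factor, 0.7314, against 0.9403 to 1.05 in the others. Risperidone ad libitum library 1 held more transcripts of cortical and hippocampal glutamatergic neurons: 8 such markers summed to 1503 CPM there (CPM being read counts scaled to library size with TMM), against 298 to 394 in all libraries of the control and pair-fed groups and a median of 359 in its own group, and Slc17a7, the vesicular glutamate transporter of those neurons, reached 699 CPM. Most of the control sum was that of Rasgrf2, at a mean of 267 CPM, which reached at most 276 ad libitum. Slc17a7 was also raised in ad libitum library 2 (55.1 CPM) and library 5 (23.4), against at most 14.9 in control and 8.96 pair-fed. Library 2 further had the highest choroid plexus marker sum, 216 CPM, against 31.9 to 90.4 in the other libraries. The pituitary hormones Gh and Prl summed to more than 3 CPM in 4 libraries: control 7, risperidone ad libitum 2, pair-fed 1 and 6. The other 16 did not reach that sum. Cga and Tshb, also on the list of pituitary markers, had reads in every library, so the 4 pituitary libraries are named by Gh and Prl alone. Library 3 of the ad libitum risperidone group had the highest sum of striatal markers, 304 CPM, against 167 to 206 in the control and pair-fed groups. Hypothalamic identity was checked with markers of hypothalamic peptide neurons and of the arcuate nucleus. All were detected in every library (Pomc at 22.8 to 64.2 CPM) except Kiss1, which had no count in any.

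Per kilobase of exon, the scale on which genes can be compared with each other, Sst was the most abundant of the 8 transcripts and Igf1 the least in each group. In control hypothalamus Sst stood at 324 ± 33.7 CPM per kb (SD, n = 7) and Ghrh at 24.1 ± 3.69. Sstr1 and Sstr2 followed at 7.47 ± 0.549 and 7.07 ± 0.857, a difference smaller than either SD. Below them came Ghr at 3.26 ± 0.250, Sstr3 at 2.53 ± 0.132, Sstr4 at 1.75 ± 0.478 and Igf1 at 0.638 ± 0.0863, each pair of neighbours apart by more than both SDs. In both risperidone groups the means of Ghr and Sstr3 lay closer together than their SDs, at 2.77 and 3.05 CPM per kb ad libitum and 2.91 and 2.84 pair-fed, and ad libitum the mean of Sstr4 (2.01 ± 1.24) lay within its own SD of Ghr.

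**Figure D1:**
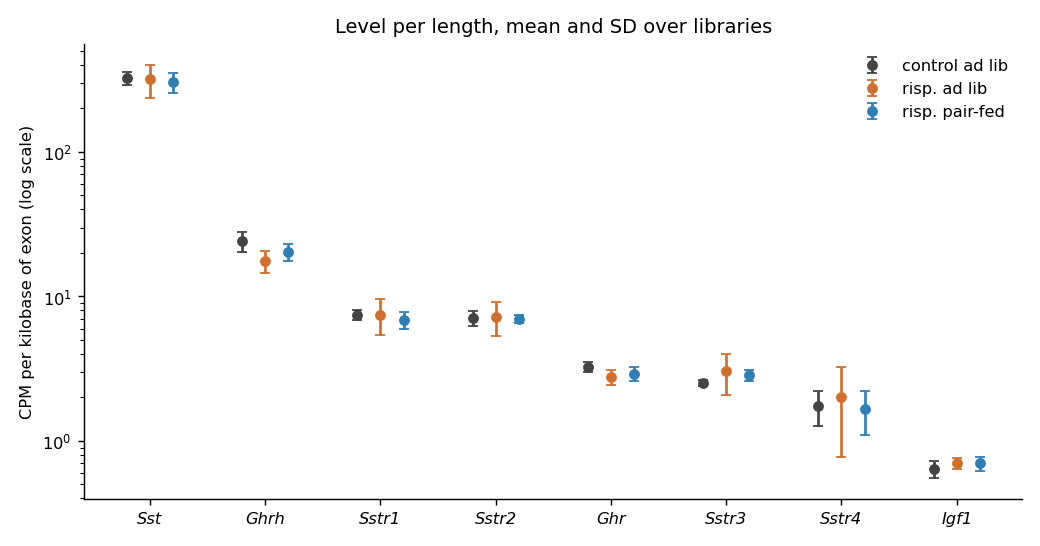
Level of each of the 8 genes in CPM per kilobase of exon on a log axis, as mean (point) and SD (bar) over the libraries of the control (n = 7), risperidone ad libitum (n = 7) and risperidone pair-fed (n = 6) groups. Sst lies above 300 CPM per kb in all groups, Ghrh next between 17.5 and 24.1, and Igf1 lowest between 0.638 and 0.700.

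The first comparison sets risperidone against control with food free. The second sets pair-fed risperidone against control fed ad libitum, so drug and feeding condition differ together and cannot be told apart. The third compares the feeding conditions on the drug. None of the 8 genes passed an adjusted p of 0.05 (edgeR quasi-likelihood test, Benjamini-Hochberg over 17893 genes) in any of them, and DESeq2 called 1, Ghrh ad libitum. Genes passing were few over the whole table: 0.0615% of genes tested for risperidone ad libitum against control, 0.486% for pair-fed against control, 0.397% for pair-fed against ad libitum risperidone and 0.33% for the risperidone groups averaged against control. At an unadjusted p under 0.05, 3 of the 8 passed ad libitum against control (Ghrh and Ghr lower, Sstr3 higher), where 13.1% of all genes tested did. Against control, 2 of 8 passed pair-fed (Ghrh and Ghr, both lower) with a background of 6.66%, and the same 2 over the mean of both groups with a background of 7.82%. Between the risperidone groups none of the 8 passed, with a background of 13.5%. The median log2 difference of the 8 genes was 0.03 ad libitum and −0.08 pair-fed against control, beside 0.01 and 0.00 over all genes tested. All comparisons with control use the same 7 control libraries, so their values are not independent.

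**Figure D2:**
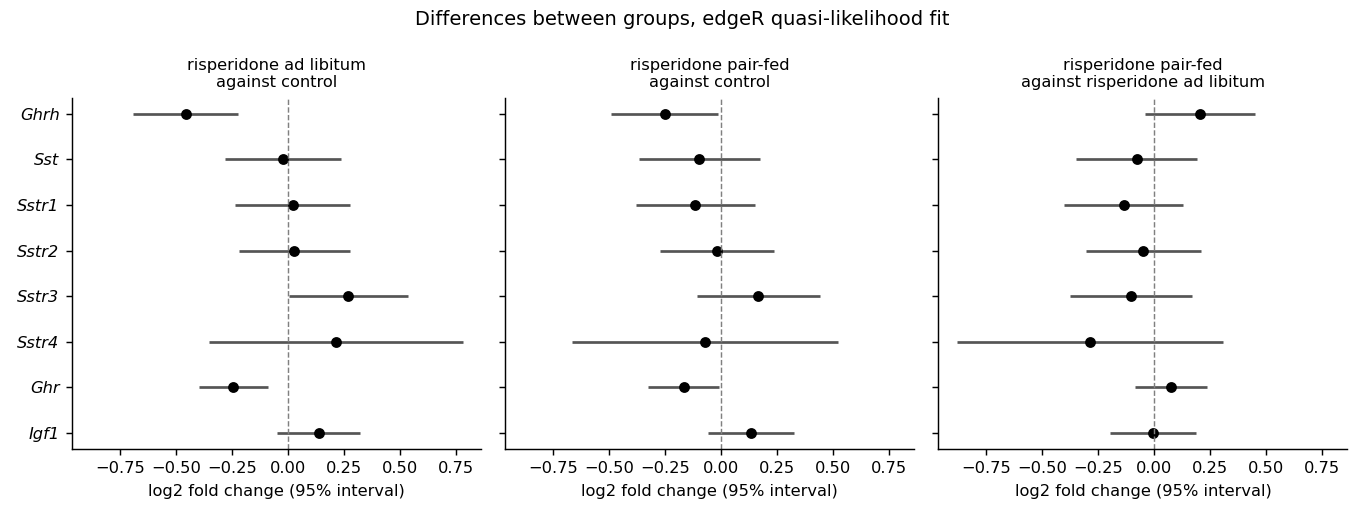
Log2 fold change of each gene (point) with its 95% interval (line) from the edgeR fit, for the 3 pairwise comparisons; the dashed line marks 0. The intervals of Ghrh and Ghr lie below 0 in both comparisons with control, and every interval of the comparison between the risperidone groups spans 0.

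Ghrh, the releasing hormone of arcuate neurons, had lower values in both risperidone groups than in control fed ad libitum, without passing the adjusted threshold. Its gene (ENSMUSG00000027643) spans 157329497 to 157347506 on the minus strand of chromosome 2 in GRCm38. The control libraries ran from 13.1 to 19.7 CPM with a median of 15.0, the ad libitum libraries from 8.35 to 14.4 with a median of 11.9, and the pair-fed libraries from 10.4 to 15.6 with a median of 13.9. The groups overlapped, but 5 of 7 ad libitum and 2 of 6 pair-fed libraries lay below the lowest control library, and all 13 lay below the control mean of 16.1 ± 2.46 CPM (SD, n = 7).

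Ad libitum, the log2 fold change of Ghrh against control was −0.46 (SE 0.113, 95% interval −0.69 to −0.22), with an adjusted p of 0.131 in edgeR. Of 27 other settings, DESeq2 was the only one that called it, at −0.46 with an adjusted p of 0.029; over all 27 the value ran from −0.51 to −0.37 and the adjusted p from 0.029 to 0.306. Pair-fed, the value was −0.25 (95% interval −0.49 to −0.01, adjusted p = 0.714, edgeR). Between the pair-fed and ad libitum risperidone groups it was 0.21 (−0.04 to 0.45, adjusted p = 0.445), so that a difference between the feeding conditions was not resolved. Over the mean of both groups it was −0.35 (−0.56 to −0.15, adjusted p = 0.201). These values rest on 234 to 374 reads per control library, 78 to 256 ad libitum and 192 to 287 pair-fed.

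The lowest Ghrh value of all, 8.35 CPM, was that of ad libitum library 1, which held the most cortical and hippocampal marker transcripts. Without that library the ad libitum difference was −0.39 (adjusted p = 0.145, edgeR), and without libraries 1 and 3 it was −0.37 (adjusted p = 0.132). In bulk tissue, fewer Ghrh neurons in a slice and less Ghrh RNA per neuron cannot be told apart. Markers of hypothalamic peptide neurons were read beside it: 10 of 11 had lower values ad libitum than in control, with a median log2 difference of −0.40. Of these, 7 were at an unadjusted p under 0.05 (13.1% of all genes tested) and 0 passed after adjustment. Their summed level was 1168 to 1555 CPM in control, 518 to 1346 ad libitum and 867 to 1332 pair-fed. The largest parts of it were the lateral hypothalamic genes Hcrt and Pmch, at means of 452 and 420 CPM in control. Pomc and Agrp belonged to both this list and the arcuate list that follows. Of 10 arcuate markers tested, 8 had lower values ad libitum (3 at an unadjusted p under 0.05, median −0.11), with sums of 376 to 443 CPM in control, 306 to 413 ad libitum and 349 to 429 pair-fed. Some other lists also had lower values ad libitum: 6 of 6 ependymal markers (4 at an unadjusted p under 0.05, median −0.32). For meningeal fibroblasts it was 8 of 8 (3, median −0.47) and for astrocytes 5 of 6 (0, median −0.06). Several lists had mostly higher values: cortical and hippocampal neurons 6 of 7 (5, median 1.58) and forebrain interneurons 7 of 8 (4, median 0.26). Markers of thalamus were higher in 5 of 7 (2, median 0.23), of endothelium in 5 of 6 (0, median 0.10) and of oligodendrocytes in 6 of 6 (0, median 0.13). Of 3 pituitary markers tested, 1 was higher and 2 were lower, each at an unadjusted p under 0.05 (median −0.49). None of these markers was called. The part of these marker differences in the Ghrh values was not tested.

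Transcription factors of the Ghrh neuron lineage were read alongside. Gsx1, a homeobox factor required for Ghrh expression, was at 2.29 ± 0.351 CPM in control, 2.45 ± 0.633 ad libitum and 2.62 ± 0.595 pair-fed (SD, n = 7, 7 and 6), with log2 differences of 0.10 (95% interval −0.24 to 0.44) and 0.20 (−0.15 to 0.54) against control. Hmx3, another homeobox factor of this list of 5, was at 4.07 ± 0.905 CPM pair-fed and 5.45 ± 0.586 CPM in control, a log2 difference of −0.42 (−0.69 to −0.16, adjusted p = 0.278, edgeR). No factor of this list passed the adjusted threshold in any comparison. Hmx3 lies within the span of Fgfr2 on the opposite strand, without exon overlap.

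**Figure D3:**
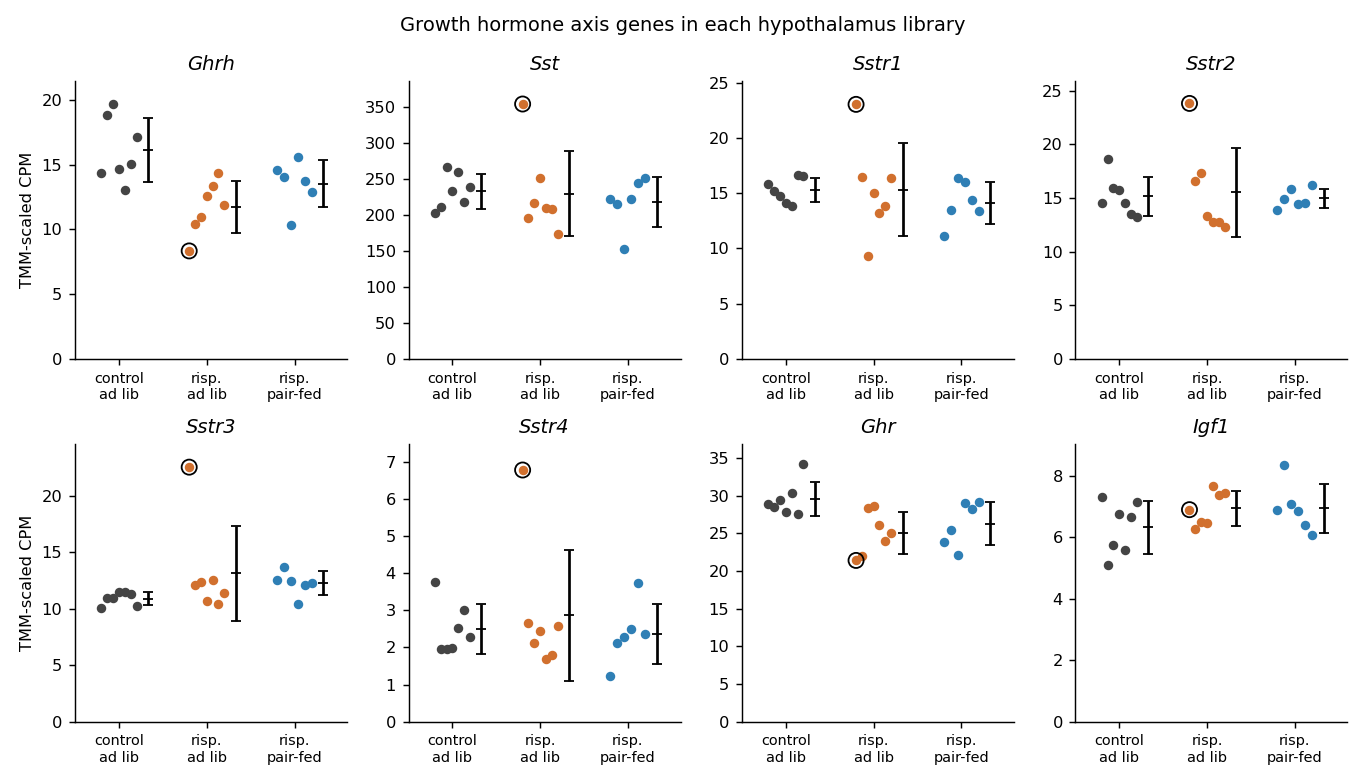
TMM-scaled CPM of each gene, 1 point per library, with the group mean and SD beside the points; the circled point is risperidone ad libitum library 1. That library has the highest Sst and Sstr1 to Sstr4 values and the lowest Ghrh and Ghr values of all 20.

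Sst, the inhibitory peptide of the axis, was at similar means in the 3 groups. The gene (ENSMUSG00000004366) spans 23889573 to 23890958 on the minus strand of chromosome 16. Control libraries ran from 203 to 267 CPM (median 234), ad libitum libraries from 174 to 355 (median 209) and pair-fed libraries from 153 to 252 (median 223). The groups overlapped, with 2 of 7 ad libitum and 1 of 6 pair-fed libraries below the lowest control library and 1 ad libitum library above the highest. The log2 fold change against control was −0.02 (95% interval −0.28 to 0.24, adjusted p = 0.974, edgeR) ad libitum and −0.10 (−0.37 to 0.17, adjusted p = 0.991) pair-fed. The intervals do not show that the groups are equal.

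The spread of Sst ad libitum came largely from library 1, at 355 CPM, with the next library of the group at 252. Without it the ad libitum difference was −0.16 (adjusted p = 0.546), and without libraries 1 and 3 it was −0.17 (adjusted p = 0.512). The same library had the highest sum of 8 forebrain interneuron markers, 245 CPM, against 158 to 193 in the control and pair-fed groups. Not all 8 were raised: Lhx6 was at 27.9 CPM there against 6.00 to 10.7 in those groups, but Nxph1, at 45.5, lay within their 33.9 to 56.3. Cort, which codes for the somatostatin-like peptide cortistatin of cortical interneurons, had 33 reads in that library and 0 to 12 in each of the others. How much of the Sst there was hypothalamic was not tested.

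In the other libraries the genes closest to Sst included the hypothalamic peptide genes Trh and Oxt. Log2 CPM values, with group means subtracted, were compared with those of 13767 genes over the 18 libraries left when ad libitum libraries 1 and 3 are set aside. The highest Pearson r with Sst was that of Trh (0.93), the gene of thyrotropin releasing hormone, followed by Oxt (0.89), the gene of oxytocin, and by Rspo1 (0.88), Fezf1 (0.87) and Qrfp (0.86). They were picked as the highest of that many genes and share the libraries and the dissection, so they carry no p. Without the 2 libraries farthest from the median of Sst (ad libitum 7 and pair-fed 3), Trh stood at 0.86 and Oxt at 0.74. Over all 20 libraries the values of Trh and Oxt were 0.63 and 0.50, and those of Rspo1, Fezf1 and Qrfp were 0.30, 0.35 and 0.39. Pair-fed library 3 had the lowest level of each in its group, at 153 CPM for Sst, 31.6 for Trh and 8.20 for Oxt.

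**Figure D4:**
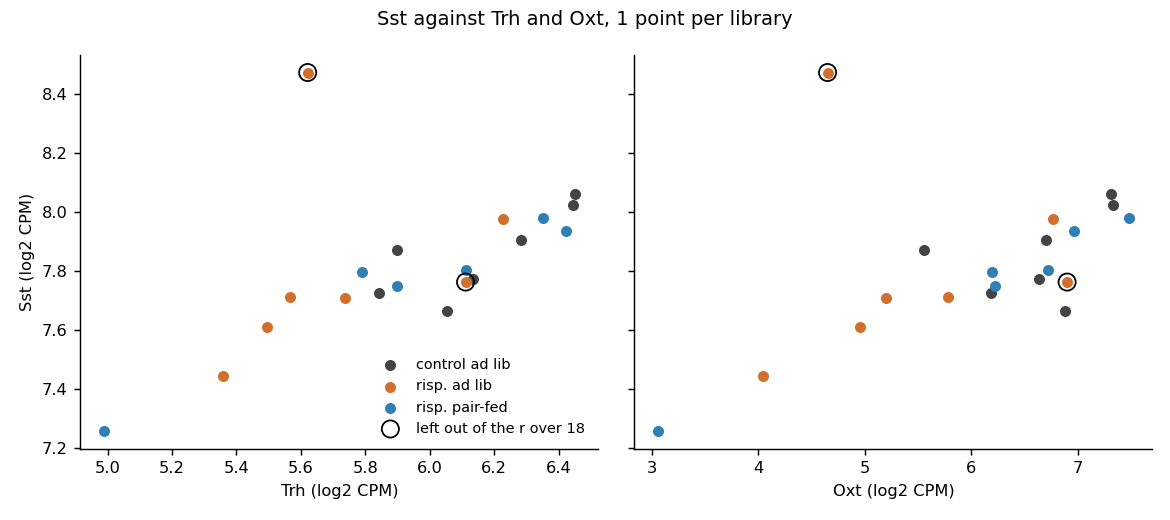
Sst against Trh (left) and Oxt (right) as log2 CPM, 1 point per library, coloured by group, with ad libitum libraries 1 and 3 circled. Apart from the circled library 1 at the top, libraries with more Trh or Oxt tend to have more Sst, from pair-fed library 3 at the lower left upwards. The tendency has exceptions: control library 4 has less Oxt than control library 1 (5.55 against 6.88) but more Sst (7.87 against 7.66).

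The r of Ghrh with Sst was 0.42 over the 18 libraries and −0.11 over all 20. The genes most like Ghrh by the same measure were Slc35e3 (0.84), Spice1 (0.80), Tasp1 (0.78), Rtn4ip1 (0.75) and Mettl26 (0.74), of which Spice1 and Tasp1 stood at 0.41 and 0.21 over all 20 libraries. Per 100 Sst reads there were 5.02 to 8.90 Ghrh reads in control (median 7.10), 2.35 to 6.88 ad libitum (median 5.33) and 5.12 to 6.99 pair-fed (median 6.55), overlapping in all groups. The lowest ratio, 2.35, was that of ad libitum library 1.

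The means of the first pair of somatostatin receptors differed little between groups, and none was called. Sstr1 (chromosome 12, 58211772 to 58214444), found on somatostatin neurons themselves among other cells, ran from 13.8 to 16.7 CPM in control (median 15.2), 9.30 to 23.0 ad libitum (median 15.0) and 11.1 to 16.4 pair-fed (median 13.9). Sstr2 (chromosome 11, 113619342 to 113626028), a main receptor for somatostatin in brain and pituitary, ran from 13.2 to 18.6 (median 14.6), 12.3 to 23.8 (median 13.3) and 13.9 to 16.2 (median 14.7). For both genes the groups overlapped and the highest value was that of ad libitum library 1.

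The log2 differences of Sstr1 from control were 0.02 (95% interval −0.23 to 0.28) ad libitum and −0.11 (−0.38 to 0.15) pair-fed, and those of Sstr2 were 0.03 (−0.22 to 0.28) and −0.02 (−0.27 to 0.24). Leaving out ad libitum library 1 turned both ad libitum values below 0, to −0.10 for Sstr1 and −0.11 for Sstr2. Sstr2 lies within the span of Slc39a11 on the opposite strand with no exon overlap, and the strand setting of the counting is not given in the sources used here.

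Sstr3 (chromosome 15, 78537008 to 78544685), the receptor placed on the primary cilia of neurons, was measured at 10.9 ± 0.572 CPM in control (SD, n = 7). Control libraries ran from 10.1 to 11.5 CPM (median 10.9), ad libitum libraries from 10.4 to 22.6 (median 12.2) and pair-fed libraries from 10.4 to 13.7 (median 12.4). The groups overlapped, with 4 of 7 ad libitum and 5 of 6 pair-fed libraries above the highest control library. The log2 difference from control was 0.27 (95% interval 0.01 to 0.53, adjusted p = 0.37, edgeR) ad libitum and 0.17 (−0.11 to 0.44, adjusted p = 0.928) pair-fed.

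Without ad libitum library 1, which at 22.6 CPM was far above the next library of its group at 12.5, the ad libitum value of Sstr3 was 0.08 (adjusted p = 0.692). The pair-fed value was 0.17 in that fit as well, with an adjusted p of 0.366. The unadjusted p ad libitum, 0.046 with all libraries, was 0.229 without library 1 and under 0.05 in 10 of 27 other settings.

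Sstr4 (chromosome 2, 148395344 to 148396767), a receptor with most of its brain expression in cortex and hippocampus, was read by 15 to 112 counts per library. Control libraries ran from 1.95 to 3.77 CPM (median 2.29), ad libitum libraries from 1.69 to 6.77 (median 2.43) and pair-fed libraries from 1.23 to 3.73 (median 2.31). The log2 difference from control was 0.21 (95% interval −0.35 to 0.78) ad libitum and −0.07 (−0.66 to 0.52) pair-fed. Without ad libitum library 1, whose 6.77 CPM compares with 2.66 in the next library, the ad libitum value was −0.16.

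Between pair-fed and ad libitum risperidone, the log2 differences of Sst, Sstr1, Sstr2, Sstr3 and Sstr4 were −0.08, −0.13, −0.05, −0.10 and −0.29, each with an interval that spanned 0 and adjusted p values of 0.662 to 0.905 in edgeR. Without ad libitum library 1 the values of Sst, Sstr2, Sstr3 and Sstr4 turned above 0, to 0.06, 0.10, 0.09 and 0.09.

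Sstr5, the remaining receptor of the family and not among the 8 genes, stood at 4.10 ± 0.272 CPM in control, 3.81 ± 0.633 ad libitum and 3.62 ± 0.419 pair-fed (SD, n = 7, 7 and 6). As a share of the summed receptor levels per kilobase, Sstr1 and Sstr2 made up 36.8% and 34.8% in control, Sstr3 12.4%, Sstr4 8.61% and Sstr5 7.40%. The share of Sstr3 was 14.3% ad libitum and 14.5% pair-fed, with SDs of 0.889, 1.37 and 1.87 percentage points in control, ad libitum and pair-fed. Sstr1 and Sstr2 together held most of the receptor transcripts in every group.

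**Figure D5:**
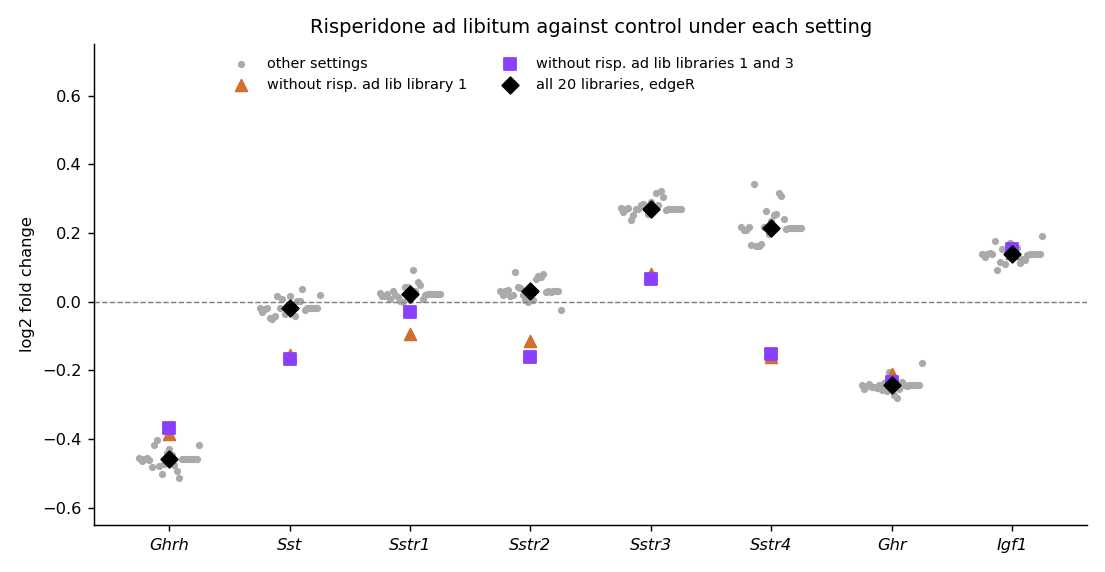
Log2 fold change of each gene for risperidone ad libitum against control with all 20 libraries in edgeR (diamond), without ad libitum library 1 (triangle), without libraries 1 and 3 (square) and under the other settings (grey points). The values of Ghrh and Ghr stay below 0 in every setting, that of Sstr3 drops from 0.27 to 0.08 without library 1, and those of Sstr1, Sstr2 and Sstr4 change sign.

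Ghr, the receptor through which growth hormone acts on the hypothalamus, had lower values on risperidone, again outside the adjusted threshold. The gene (ENSMUSG00000055737) spans 3317760 to 3583492 on the minus strand of chromosome 15. Control libraries ran from 27.5 to 34.2 CPM (median 29.0), ad libitum libraries from 21.4 to 28.6 (median 25.02) and pair-fed libraries from 22.2 to 29.1 (median 26.8). The groups overlapped, while 5 of 7 ad libitum and 3 of 6 pair-fed libraries lay below the lowest control library and all 13 below the control mean of 29.5 ± 2.26 CPM (SD, n = 7).

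The log2 fold change of Ghr was −0.24 (SE 0.0739, 95% interval −0.40 to −0.09, adjusted p = 0.193, edgeR) ad libitum, −0.17 (−0.32 to −0.01, adjusted p = 0.711) pair-fed and −0.20 (−0.34 to −0.07, adjusted p = 0.323) over the mean of both groups. Between pair-fed and ad libitum risperidone it was 0.08 (−0.08 to 0.24, adjusted p = 0.683). The highest value, 34.2 CPM, was that of control library 7, which also had the most Gh and Prl reads (186 and 402). Without the 4 libraries with Gh and Prl above 3 CPM the ad libitum value of Ghr was −0.18 (adjusted p = 0.368, edgeR). The pair-fed value was −0.14 (adjusted p = 0.9999, edgeR). The part of pituitary tissue in the Ghr values was not tested further. Ghr and Sst had an r of 0.67 over the 18 libraries and of 0.19 over all 20.

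Igf1, the growth factor downstream of growth hormone, had slightly higher mean values in both risperidone groups than in control fed ad libitum and was not called. The gene spans 87858265 to 87937042 on the plus strand of chromosome 10 and overlaps the span of Igf1os on the opposite strand without sharing exon bases. Control libraries ran from 5.08 to 7.31 CPM (median 6.64), ad libitum libraries from 6.26 to 7.68 (median 6.89) and pair-fed libraries from 6.06 to 8.36 (median 6.87). The groups overlapped, with 3 of 7 ad libitum and 1 of 6 pair-fed libraries above the highest control library. The log2 difference from control was 0.14 (95% interval −0.05 to 0.32, adjusted p = 0.529, edgeR) ad libitum and 0.13 (−0.06 to 0.33, adjusted p = 0.889) pair-fed, and −0.00 (−0.20 to 0.19) between the risperidone groups. Microglia, a source of Igf1 in brain, had similar summed marker levels in the 3 groups, with 179 to 234, 183 to 219 and 193 to 233 CPM.

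The wider axis was read through 42 further genes: other ligands, other receptors, IGF binding proteins with their proteases, signalling genes, Ghrh neuron factors and enzymes that process peptide precursors. Of these 37 passed the low-count filter, and none passed the adjusted threshold in any comparison of the edgeR fit to all 20 libraries. At an unadjusted p under 0.05, 3 had higher and 4 lower values ad libitum against control, 0 and 4 pair-fed against control, and 1 and 4 pair-fed against ad libitum risperidone, where 13.1%, 6.66% and 13.5% of all genes tested passed in either direction, with median log2 differences of −0.02, −0.07 and −0.08. Ghrhr, the pituitary receptor for Ghrh, had 1 read in each of 2 libraries and none in the other 18. Gh, Cort, Igfbp1 and Igfals were also too low to test.

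Among the signalling genes was Irs2, an adaptor of the insulin and IGF1 receptors. It ran from 120 to 133 CPM in control (median 126), 98.4 to 125 ad libitum (median 109) and 102 to 119 pair-fed (median 112). Its log2 difference was −0.20 (SE 0.0518, adjusted p = 0.138, edgeR) ad libitum, −0.19 (SE 0.0538, adjusted p = 0.224) pair-fed and −0.19 (SE 0.0451, adjusted p = 0.0757) over the mean of both groups. Without ad libitum libraries 1 and 3, Irs2 passed the adjusted threshold in each of these, with adjusted p values of 0.00391, 0.0125 and 0.000488 (edgeR). The pair-fed comparison with control holds neither library, so its change came through the spread, scaling and filter that the fit shares. Over 27 settings the adjusted p ran from 0.00391 to 0.283, from 0.0125 to 0.9999 and from 0.000488 to 0.439. Irs2 shares exon bases with 9530052E02Rik on the opposite strand, so its counts are uncertain.

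Stat5b, a transcription factor activated by the growth hormone receptor, was at 80.8 ± 3.11 CPM in control, 73.0 ± 5.80 ad libitum and 73.2 ± 4.86 pair-fed (SD, n = 7, 7 and 6). Its log2 difference from control was −0.15 (adjusted p = 0.241) and −0.14 (adjusted p = 0.491, edgeR). Cish, a STAT5 target that restrains cytokine receptor signalling, had a log2 difference of 0.30 (SE 0.12, adjusted p = 0.306) between pair-fed and ad libitum risperidone, and it shares exon bases with predicted genes on the opposite strand. Sh2b1, an adaptor of JAK2, had one of −0.11 (SE 0.0468, adjusted p = 0.324), which was −0.06 (adjusted p = 0.663) without ad libitum libraries 1 and 3 and had an unadjusted p under 0.05 in 18 of 27 other settings. Without the 4 libraries with Gh and Prl above 3 CPM, the value of Cish was 0.19 (adjusted p = 0.726, edgeR) and that of Sh2b1 −0.09 (adjusted p = 0.697).

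Of the growth factor side, Igf1r, the receptor for Igf1, was at 71.0 ± 2.98 CPM in control, 78.4 ± 10.6 ad libitum and 66.7 ± 2.29 pair-fed (SD, n = 7, 7 and 6). Its log2 difference between pair-fed and ad libitum risperidone was −0.23 (SE 0.0639, adjusted p = 0.14, edgeR). The highest ad libitum value, 99.2 CPM, was that of library 3, the library with the fewest counts and the highest striatal marker sum. Without that library the difference was −0.17, and without libraries 1 and 3 it was −0.13 (adjusted p = 0.176, edgeR). Over 27 other settings the adjusted p ran from 0.049 with DESeq2 to 0.376 with the groups compared alone. Pappa, a protease that releases IGF from its binding proteins, was at 2.33 ± 0.323 CPM in control and 3.12 ± 0.643 ad libitum, a log2 difference of 0.39 (SE 0.124, adjusted p = 0.209). Ghsr, the ghrelin receptor, which also stimulates growth hormone release, was at 8.68 ± 1.83, 7.62 ± 1.96 and 6.63 ± 2.53 CPM, with intervals of the log2 difference from control of −0.56 to 0.23 ad libitum and −0.80 to 0.02 pair-fed.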

How the data were processed

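The authors deposited gene-level read counts, unnormalized whole numbers with 1 column per library, made with STAR and featureCounts on GRCm38 (mm10), per the submitters' processing notes, which also name DESeq2. Reads were paired-end of 150 bases, per the labels. The sources used here give no versions, annotation release or strand setting. Of 55471 genes, 327 had no symbol in the GENCODE annotation, and 13801 had no count. Counts were tested with the edgeR 4.0.16 quasi-likelihood F test in R 4.3.3 (two-sided, TMM scaling, filterByExpr at a minimum count of 10, 1 fit to 20 libraries with a coefficient per group, Benjamini-Hochberg adjustment over 17893 genes, threshold 0.05), after a check on simulated counts. The common biological coefficient of variation was 11.26%. No 2 libraries of a group agreed within sampling noise (chi-square per degree of freedom at least 2.64 over 57 pairs). Levels are TMM-scaled CPM and log values used a prior count of 2. Other settings were RLE scaling, no filter, DESeq2 1.42.0, fits to the compared groups alone, a replicate block, each library left out, ad libitum libraries 1 and 3 left out and, chosen after seeing the data, 4 libraries with Gh and Prl above 3 CPM left out. Promoter sequences are from RefSeq. The 8 genes and the 20 gene lists were chosen with earlier results of these data known. Further axis genes were named if called or if among the 3 smallest p values of a pairwise comparison, and the 5 genes most like Ghrh and Sst by r among genes of at least 1 CPM, leaving out predicted genes and pseudogenes. Gsx1, Sstr5, Ghsr, Cort and the marker genes outside this rule were named after their values were seen.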

Additional observations from a re-analysis of the deposited data

Results flagged for a closer look

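In 4 of the 24 sets of values (8 genes in 3 groups) the most extreme library lay farther from its neighbour than Dixon's 95% criterion for 7 samples allows, where chance marks about 1 in 20 sets. For 3 of them the library was risperidone ad libitum 1, the library with 1503 CPM of cortical and hippocampal neuron markers: Sst at 354.72 CPM beside 251.59 in the next library (gap over range 0.571, criterion 0.568), Sstr3 at 22.556 beside 12.53 (0.825) and Sstr4 at 6.7727 beside 2.6603 (0.81). The fourth was Ghr in control library 7, at 34.168 CPM beside 30.355 (0.574), the library with the highest Gh and Prl counts.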

How the results depend on the processing

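No gene of the 8 was called under any of 27 other settings in any comparison, except Ghrh ad libitum with DESeq2, which made that count 1 in place of 0. Of 972 recomputed single-gene values, 923 kept direction and side of the threshold, 10 gained a call, 0 lost one and 39 changed sign. The counts of all genes called moved more, with causes not tested. Ad libitum against control, 11 genes in the edgeR fit became 113 with DESeq2, 3 with the groups alone, 1 with a replicate block, 48 without ad libitum libraries 1 and 3, 0 without the pituitary libraries (2046 at an unadjusted p under 0.05 in edgeR) and 0 to 35 with 1 library left out. Pair-fed against control, 87 became 132, 245, 65, 250 and 48, and 66 to 166. Between the risperidone groups 71 became 167, 31, 48, 142 and 22, and 39 to 130. For the mean of both groups 59 became 97, 18, 45, 193 and 24, and 36 to 99.

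Sign changes concerned Sst, Sstr1, Sstr2, Sstr3, Sstr4 and Igf1, with Sstr4 starting farthest from 0 (0.21 ad libitum against control, −0.29 between the risperidone groups). Ad libitum against control, leaving out 1 library gave ranges of −0.1567 to 0.03811 (Sst), −0.09533 to 0.09069 (Sstr1), −0.1142 to 0.08562 (Sstr2) and −0.1603 to 0.3419 (Sstr4). Without libraries 1 and 3, Sstr1 was −0.030, Sstr2 −0.16 and Sstr4 −0.15, and without the pituitary libraries Sst was 0.0181 and Sstr2 −0.0233. Pair-fed against control, the ranges were −0.04753 to 0.03889 (Sstr2) and −0.2457 to 0.06063 (Sstr4), with Sstr4 at 0.0731 without the pituitary libraries. Between the risperidone groups they were −0.1341 to 0.06088 (Sst), −0.09696 to 0.09737 (Sstr2), −0.1544 to 0.08587 (Sstr3), −0.4604 to 0.09008 (Sstr4) and −0.0637 to 0.03234 (Igf1). There, without libraries 1 and 3, Sst was 0.0707, Sstr2 0.143, Sstr3 0.0992 and Sstr4 0.0814, and Igf1 was 0.0055 with no filter, 0.024 with the replicate block and 0.0202 without the pituitary libraries.

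Replicate numbers were not used as pairs in the main fit. Deviations of libraries with the same number had r from −0.158 to 0.304, over 0.1 in 2 of 19 pairs. Such values cannot show whether the samples were paired by design. Reads per library limit Sstr4 most, at 15 to 112, and no group was pair-fed on control diet, so feeding and drug cannot be told apart there.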
